A study of Mus musculus with 16 samples.

Results

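The genes described here are 38 genes of blood and lymphatic endothelium, chosen as a list of symbols and found by the Ensembl identifier of each row in the count table. All 38 were among the 55573 genes counted, and all 38 passed the filter on low counts that left 20822 genes for testing. Their levels were compared in epididymal white adipose tissue (eWAT), the visceral fat depot beside the testis, of db/db mice (genotype C57BLKS/J-db/db), which lack a working leptin receptor and become obese and diabetic on standard chow. LRG1 is a secreted leucine-rich glycoprotein. There were 4 groups of 4 males. The groups were db/db mice given AAV8-LRG1-FL and killed at an age of 7 weeks, db/db mice given AAV8-eGFP at the same age, and the same virus groups at an age of 10 weeks, called LRG1 and eGFP at week 7 and week 10 below. Both viruses were injected into the blood at 4 weeks of age. The LRG1 vector has a CB7 promoter, which is active in many tissues, and encodes a FLAG-tagged protein. Virus was assigned by cage, and the cage of each mouse is not given in the sources used here, so that cage and virus cannot be told apart.

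Endothelial cells line all vessels. Vascular endothelial growth factor receptors and the angiopoietin receptor drive and stabilise vessel growth, and cadherins and claudins seal the cells to each other. Transcription factors of the ETS and SOXF families keep the cells endothelial, while Notch signalling with its ligand Dll4 and the ephrin Efnb2 marks arteries, and Prox1 marks and maintains lymphatic vessels. In fat, capillaries deliver fatty acids to adipocytes, and a growing depot has to enlarge its vessel bed. Several of the genes are also used by blood cells. Fli1, Lyl1 and Tal1 are haematopoietic transcription factors too, Cd93 and Pecam1 are found on monocytes, Vwf is stored in platelets, and Podxl coats mesothelium.

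The libraries held 45376227 to 67539937 counts, of which 38636 to 106462 fell on the 38 genes. Lrg1 checked the labels, at 288 to 478 CPM in LRG1 and 86.2 to 110.2 CPM in eGFP mice of week 7 and at 286 to 624 CPM in LRG1 and 99.6 to 115 CPM in eGFP mice of week 10, where CPM is the count scaled to a common library total after TMM normalisation. Reads of vector-borne and endogenous Lrg1 are counted together. Of 8 epididymis genes, 7 were too low to be tested. Within groups, the eGFP mice of week 10 stood apart from each other. The mean log2 CPM of the 38 genes was 3.23 and 3.25 in replicates 1 and 3, and 3.94 and 3.90 in replicates 2 and 4. Replicates 1 and 3 also had 2609 and 2651 CPM summed over 12 pan-leukocyte genes and 420.5 and 465.9 CPM over 9 mast cell genes, while replicates 2 and 4 had 948.9 and 1187 CPM of leukocyte genes and 58.4 and 119 CPM of mast cell genes. Results of week 10 are therefore also given without replicates 1 and 3, an alternative chosen after the data were seen. LRG1 mice of week 7 differed too, with a mean log2 CPM of 4.354 and 4.278 in replicates 1 and 2, and 3.889 and 4.015 in replicates 3 and 4. In that group replicate 1 was highest for 21 of the 38 genes and replicate 2 for 16, against 25.5% and 26.5% of all genes. The 38 genes thus largely moved together by mouse, and counts over them are not counts of independent results. In whole tissue, fewer endothelial cells and less RNA per endothelial cell cannot be told apart.

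Levels of different genes were compared per length, as CPM per kilobase of the gene length in the count table (averages of 4 mice). In LRG1 mice of week 7 the levels per kilobase were led by Cdh5 at 38.9 ± 7.24 (SD, n = 4), Cldn5 at 30.6 ± 3.002 and Pecam1 at 26.7 ± 4.33, followed by Cd93 at 24.6 ± 4.03. In eGFP mice of week 7 they were led by Cd93 at 33.5 ± 4.26 (SD, n = 4), Fli1 at 20.5 ± 2.09, Cdh5 at 20.4 ± 2.62, Cldn5 at 16.4 ± 3.89 and Pecam1 at 14.6 ± 1.96. The lowest in eGFP mice were Flt4 at 0.484 ± 0.113, Tal1 at 0.308 ± 0.061 and Prox1 at 0.025 ± 0.013. Of the 37 neighbours in this order, 33 had overlapping ranges, and 4 were apart: Cd93 from Fli1, Pecam1 from Plvap, Flt4 from Tal1, and Tal1 from Prox1. Thus the highest mean levels per length at week 7 were those of the junction genes Cdh5, Cldn5 and Pecam1 in LRG1 mice. In eGFP mice of week 7 the highest was that of Cd93, a surface lectin. In LRG1 mice the range of Pecam1, 22.4 to 30.8, overlapped that of Cd93, 19.3 to 28.0.

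**Figure D1:**
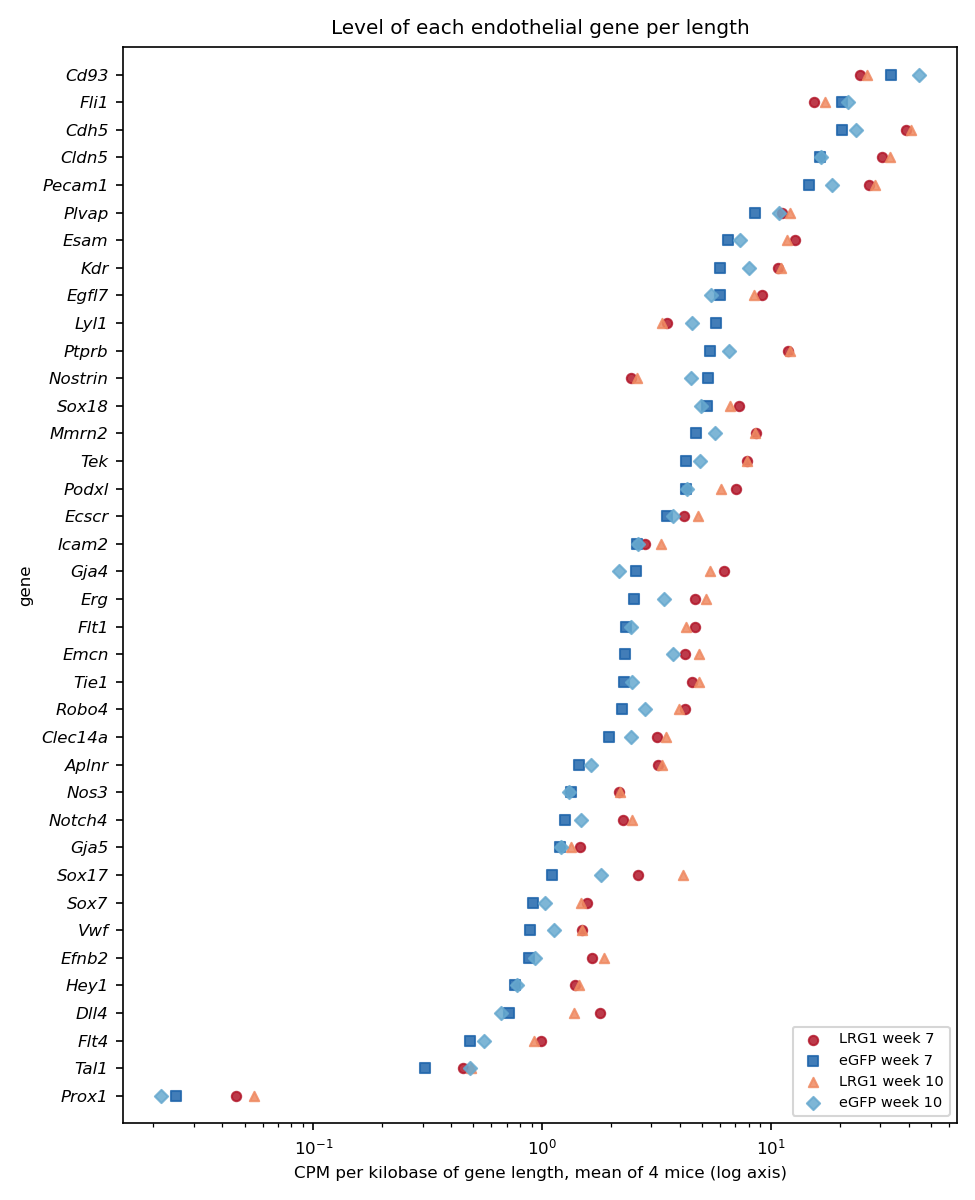
Level of each gene per length (x axis, CPM per kilobase, log axis, mean of 4 mice) in LRG1 and eGFP mice of weeks 7 and 10. Points of LRG1 mice lie to the right of those of eGFP mice of the same week for 34 genes, and to the left for Cd93, Fli1, Lyl1 and Nostrin.

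The first question was how endothelial genes differed between LRG1 and eGFP mice at week 7. Of the 38 genes, 20 were higher and 2 lower in LRG1 mice at an adjusted p below 0.01 (edgeR quasi-likelihood test, Benjamini-Hochberg over all 20822 genes), and 16 were not called. Among all genes tested 7.37% were called higher and 10.7% lower. The list was drawn up with earlier results of these data known, so shares over all genes, here and below, describe it and do not test it. The log2 fold change was above 0 for 34 of the 38 genes, against 50.5% of all genes. The median log2 fold change of the 38 genes was 0.87, a 1.82-fold difference, against a median of 0.01 over all genes. Genes called higher differed by 0.70 (Clec14a, 1.62-fold) to 1.31 (Dll4, 2.48-fold), and the 2 called lower were Lyl1 and Nostrin. The LRG1 libraries lay wholly above the eGFP libraries for 27 genes (18.6% of all genes) and wholly below for Cd93, Fli1, Lyl1 and Nostrin (19.4% of all genes), and overlapped them for Icam2, Ecscr, Plvap, Sox18, Tal1, Gja5 and Prox1. The number called depended on single libraries, while the median did not leave 0.76 to 0.90. Without 1 library, the total of 22 became 5 (eGFP replicate 2), 6 (eGFP replicate 3, eGFP replicate 4 or LRG1 replicate 1) or 9 (LRG1 replicate 2), and 15 to 16 without any of the others. Over all genes, 1534 were called higher and 2221 lower with every library. In the fits with 5 to 9 calls these became 850 to 1128 and 1655 to 1951. In the fits with 15 to 16 calls they became 705 to 889 and 1481 to 1620. The total was also 5, as 2 higher and 3 lower, with scaling by library size alone. That scaling called 341 higher and 3636 lower over all genes. It moved the median of all genes to -0.15 and that of the 38 genes to 0.71, with 33 genes above 0 in place of 34.

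**Figure D2:**
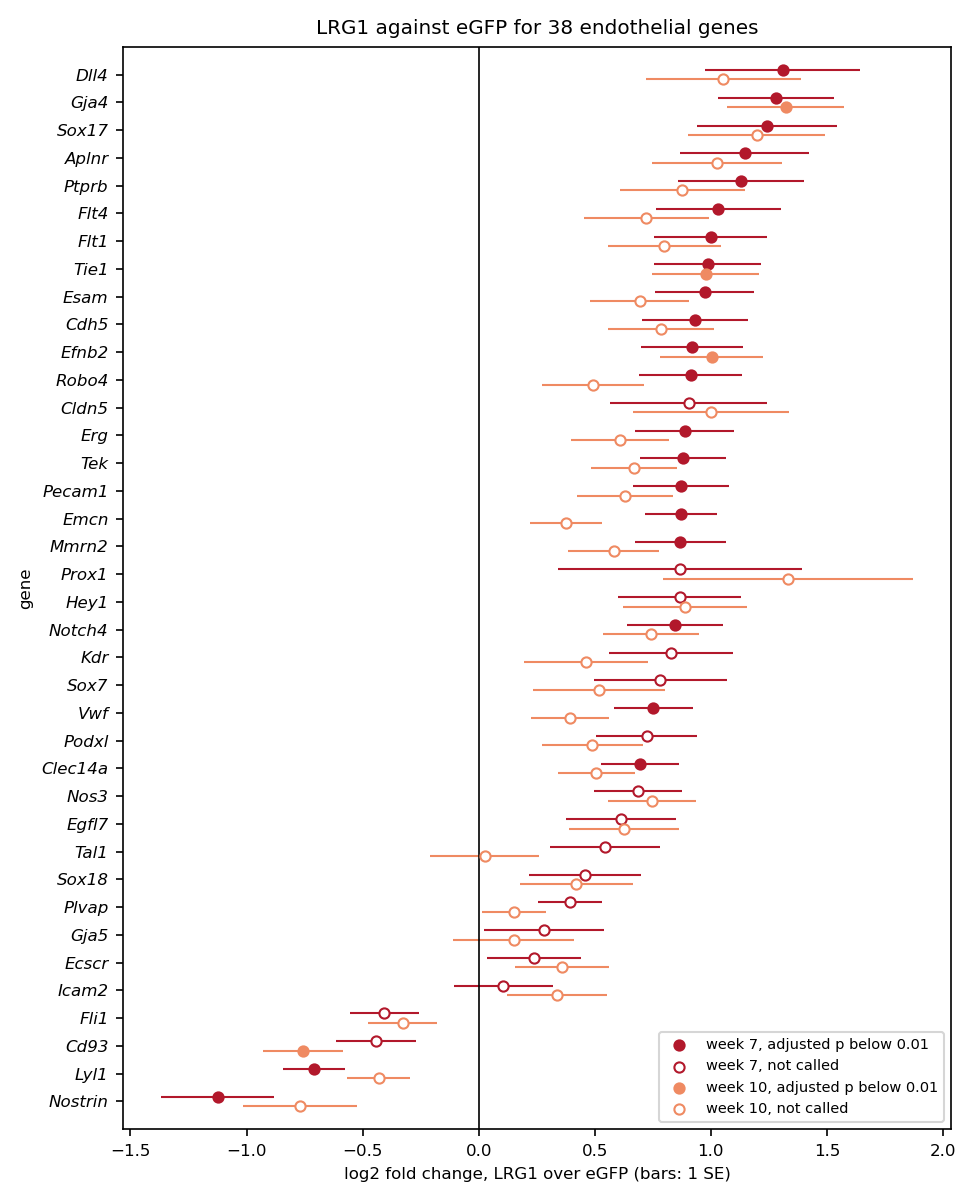
Log2 fold change of LRG1 over eGFP mice for each gene at weeks 7 and 10 (x axis, points, with bars of 1 SE from edgeR), sorted by week 7. Filled points passed an adjusted p of 0.01, and 34 genes lie right of 0 and 4 left of it at both weeks.

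Sequence before the start of transcription is shown for the 5 genes with the smallest adjusted p at week 7 of the list, 3 higher and 2 lower in LRG1 mice. The table of RefSeq promoters (GRCm38.p6) held 20 of the 38 genes, with 26 start sites. Each line gives the 250 bases before the RefSeq start, 5′ to 3′ on the strand of the gene, of Emcn (chr3:137340828-137341077, plus strand), Gja4 (chr4:127314040-127314289, minus strand), Tek (chr4:94739039-94739288, plus strand), Lyl1 (chr8:84701207-84701456, plus strand) and Nostrin (chr2:69135550-69135799, plus strand). Capitals mark AGGAAG, a core bound by ETS factors such as Erg and Fli1, AACAAT, bound by SOX factors such as Sox17, and TGGGAA, bound by the Notch partner Rbpj, or the reverse complement of each, and no matches overlapped.
Emcn: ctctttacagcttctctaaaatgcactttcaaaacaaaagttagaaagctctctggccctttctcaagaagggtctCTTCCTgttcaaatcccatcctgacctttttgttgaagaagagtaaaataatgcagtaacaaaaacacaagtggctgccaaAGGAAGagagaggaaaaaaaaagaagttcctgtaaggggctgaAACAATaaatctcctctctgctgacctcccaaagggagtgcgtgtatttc
Gja4: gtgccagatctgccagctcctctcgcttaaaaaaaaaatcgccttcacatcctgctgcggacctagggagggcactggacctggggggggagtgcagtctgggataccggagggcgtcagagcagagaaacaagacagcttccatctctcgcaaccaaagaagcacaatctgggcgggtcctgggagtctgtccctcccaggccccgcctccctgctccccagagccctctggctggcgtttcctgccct
Tek: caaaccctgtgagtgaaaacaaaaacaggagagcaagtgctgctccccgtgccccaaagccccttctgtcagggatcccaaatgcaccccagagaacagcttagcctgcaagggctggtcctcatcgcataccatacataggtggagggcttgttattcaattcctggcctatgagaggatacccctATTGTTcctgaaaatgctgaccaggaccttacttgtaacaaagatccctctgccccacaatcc
Lyl1: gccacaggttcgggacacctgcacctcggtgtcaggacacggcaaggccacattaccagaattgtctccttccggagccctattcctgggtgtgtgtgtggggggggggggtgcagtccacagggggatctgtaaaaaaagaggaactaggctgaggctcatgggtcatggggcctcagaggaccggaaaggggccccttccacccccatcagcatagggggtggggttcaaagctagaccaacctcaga
Nostrin: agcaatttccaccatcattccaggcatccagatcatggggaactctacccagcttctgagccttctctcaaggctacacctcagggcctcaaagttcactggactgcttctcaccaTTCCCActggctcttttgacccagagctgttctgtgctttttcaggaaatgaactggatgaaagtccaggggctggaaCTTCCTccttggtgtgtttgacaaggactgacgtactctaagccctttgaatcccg
The Emcn window holds 2 ETS words and 1 SOX word, that of Tek 1 SOX word, and that of Nostrin 1 ETS and 1 Rbpj word, while those of Gja4 and Lyl1 hold none. Over the list, the ETS word stood in 10 of 26 windows (38.5%), against 29.5% of 32851 windows of all genes. The SOX word was in 3 (11.5%), against 9.42% of all windows, and the Rbpj word in 7 (26.9%), against 21.6%. These matches describe the letters only.

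Of 6 growth factor receptors and their regulators, 5 were called higher in LRG1 mice at week 7 and 1, Tie1, at week 10, with medians of 0.99 and 0.76. Tek (ENSMUSG00000006386, chr4:94739289-94874976), the receptor for angiopoietins, had 39.5, 38.9, 32.8 and 36.9 CPM in the LRG1 libraries of week 7, against 22.6, 19.9, 18.2 and 19.8 CPM in the eGFP libraries (log2 fold change 0.88, SE 0.19, adjusted p = 0.00237). Its orphan relative Tie1 (ENSMUSG00000033191, chr4:118471191-118490061) had 25.8, 24.7, 18.7 and 20.1 CPM in the LRG1 libraries of week 7, against 13.3, 9.66, 11.8 and 10.3 CPM in the eGFP libraries (log2 fold change 0.99, SE 0.23, adjusted p = 0.00437). No LRG1 value of Tek or Tie1 lay below any eGFP value. Ptprb, the phosphatase that dampens Tek, had 235, 142, 135 and 121 CPM in the LRG1 libraries of week 7, against 76.9, 62.5, 74.99 and 74.97 CPM in the eGFP libraries (log2 fold change 1.13, SE 0.27, adjusted p = 0.00522). Replicate 1 was the highest of the LRG1 mice for Ptprb and also for Flt1, a receptor that binds VEGF with high affinity and limits its action. Flt1 was at 96.002, 52.8, 55.96 and 45.7 CPM in the LRG1 libraries of week 7, against 37.4, 24.7, 33.2 and 30.1 CPM in the eGFP libraries (log2 fold change 1.00, SE 0.24, adjusted p = 0.00564). Flt4, the VEGF-C receptor of lymphatic and growing vessels, averaged 8.15 ± 1.62 CPM in LRG1 mice and 3.99 ± 0.933 CPM in eGFP mice (SD, n = 4 each; log2 fold change 1.03, SE 0.27, adjusted p = 0.00848). Kdr, the main signalling receptor for VEGF, had 107, 109, 84.3 and 86.7 CPM in the LRG1 libraries of week 7, against 61.1, 50.5, 52.7 and 53.2 CPM in the eGFP libraries. These values do not overlap, but Kdr was not called (log2 fold change 0.83, SE 0.27, adjusted p = 0.0267), and its eGFP values of week 10 ranged widely.

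Tie1 was the receptor called at both weeks. It measured 20.4, 17.2, 33.6 and 24.5 CPM in the LRG1 libraries of week 10, against 8.36, 15.2, 8.59 and 16.3 CPM in the eGFP libraries (log2 fold change 0.98, SE 0.23, adjusted p = 0.00802). Tek measured 30.6, 34.4, 49.2 and 33.3 CPM in the LRG1 libraries of week 10, against 18.9, 32.6, 15.8 and 25.3 CPM in the eGFP libraries (log2 fold change 0.67, SE 0.19, adjusted p = 0.0177). A single eGFP library, replicate 2, lay inside the LRG1 range of Tek, whereas those of Tie1 did not overlap. Kdr measured 90.96, 97.96, 109 and 101 CPM in the LRG1 libraries of week 10, against 34.9, 111, 43.9 and 100 CPM in the eGFP libraries (log2 fold change 0.46, SE 0.27, adjusted p = 0.223), so that eGFP replicates 2 and 4 were at the level of the LRG1 mice and replicates 1 and 3 were well below. Without eGFP replicates 1 and 3 the difference of Kdr was -0.078. Ptprb (log2 fold change 0.88, SE 0.27, adjusted p = 0.0286), Flt1 (log2 fold change 0.80, SE 0.24, adjusted p = 0.0267) and Flt4 (log2 fold change 0.72, SE 0.27, adjusted p = 0.0625) were not called at week 10.

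Of 5 junction and adhesion genes, 3 were called higher at week 7 and none at week 10. Cdh5, the cadherin of endothelial junctions, had 199.7, 178, 137 and 139 CPM in the LRG1 libraries of week 7, against 100.5, 73.9, 85.2 and 83.005 CPM in the eGFP libraries (log2 fold change 0.93, SE 0.23, adjusted p = 0.00573). Pecam1, an adhesion molecule of endothelium and blood cells, had 188, 192, 139.5 and 147 CPM in the LRG1 libraries of week 7, against 109, 83.8, 83.8 and 87.2 CPM in the eGFP libraries (log2 fold change 0.87, SE 0.21, adjusted p = 0.00492). Both lay wholly apart, with LRG1 replicates 1 and 2 above replicates 3 and 4. Esam, an immunoglobulin-like protein of tight junctions, was at 40.8, 41.6, 32.2 and 32.2 CPM in the LRG1 libraries of week 7, against 21.8, 14.997, 18.6 and 19.4 CPM in the eGFP libraries (log2 fold change 0.97, SE 0.21, adjusted p = 0.00301). Cldn5, the tight junction claudin of endothelium, averaged 43.3 ± 4.25 CPM in LRG1 mice and 23.2 ± 5.51 CPM in eGFP mice (SD, n = 4 each) and was not called (log2 fold change 0.90, SE 0.34, adjusted p = 0.051), although its ranges did not overlap. Icam2, an adhesion molecule that leukocytes also carry, was not called, with 5.35 ± 0.884 CPM in LRG1 mice and 4.97 ± 0.948 CPM in eGFP mice (SD, n = 4 each; log2 fold change 0.11, SE 0.21, adjusted p = 0.743).

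The same genes had less even eGFP levels at week 10. Cdh5 measured 165, 139, 222 and 159 CPM in the LRG1 libraries of week 10, against 60.99, 137, 72.5 and 127 CPM in the eGFP libraries (log2 fold change 0.79, SE 0.23, adjusted p = 0.0215). Pecam1 measured 163, 142, 249.8 and 158 CPM in the LRG1 libraries of week 10, against 76.6, 147, 96.1 and 141 CPM in the eGFP libraries (log2 fold change 0.63, SE 0.21, adjusted p = 0.0378). LRG1 replicate 3 was the highest library of both genes, and only for Cdh5 did every LRG1 mouse exceed every eGFP mouse. Esam measured 34.8, 24.9, 46.8 and 28.9 CPM in the LRG1 libraries of week 10, against 15.5, 26.8, 15.1 and 26.2 CPM in the eGFP libraries (log2 fold change 0.69, SE 0.21, adjusted p = 0.0287). The values of Cldn5 (log2 fold change 1.00, SE 0.34, adjusted p = 0.0427) and Icam2 (log2 fold change 0.34, SE 0.21, adjusted p = 0.272) overlapped between the groups.

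Surface glycoproteins and their partners gave the gene with the smallest adjusted p and also Cd93, which ran against most of the list. Of 8 genes, 4 were called higher at week 7, and 1, Cd93, was called lower at week 10. Emcn (ENSMUSG00000054690, chr3:137341067-137432185), a mucin-like sialoglycoprotein of capillaries and veins, had 24.8, 27.2, 19.5 and 19.6 CPM in the LRG1 libraries of week 7, against 14.8, 10.9, 11.6 and 12.4 CPM in the eGFP libraries (log2 fold change 0.87, SE 0.15, adjusted p = 0.000711). Mmrn2, a matrix protein that binds Clec14a and Cd93, had 40.2, 38.2, 28.3 and 30.1 CPM in the LRG1 libraries of week 7, against 22.9, 18.2, 15.8 and 18.01 CPM in the eGFP libraries (log2 fold change 0.87, SE 0.20, adjusted p = 0.00363). Clec14a, a C-type lectin of endothelium, had 13.8, 19.1, 11.03 and 14.3 CPM in the LRG1 libraries of week 7, against 9.84, 9.84, 9.26 and 6.99 CPM in the eGFP libraries (log2 fold change 0.70, SE 0.17, adjusted p = 0.00518). Each of these was higher in all LRG1 mice than in any eGFP mouse. Robo4, a guidance receptor that steadies vessels, averaged 22.3 ± 3.90 CPM in LRG1 mice and 11.9 ± 0.974 CPM in eGFP mice (SD, n = 4 each; log2 fold change 0.91, SE 0.22, adjusted p = 0.00578). The sialomucin Podxl (log2 fold change 0.72, SE 0.22, adjusted p = 0.0186) and Plvap, which forms the diaphragms of fenestrae and caveolae (log2 fold change 0.39, SE 0.14, adjusted p = 0.0391), missed the threshold. Ecscr, a small surface protein of endothelium, was at 7.28 ± 1.77 CPM in LRG1 mice and 6.17 ± 0.448 CPM in eGFP mice (SD, n = 4 each; log2 fold change 0.24, SE 0.20, adjusted p = 0.394).

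Cd93 (ENSMUSG00000027435, chr2:148436640-148443563) encodes a C-type lectin of endothelium and monocytes. It had 187, 184, 129 and 159 CPM in the LRG1 libraries of week 7, against 208, 263, 225 and 198 CPM in the eGFP libraries (log2 fold change -0.44, SE 0.17, adjusted p = 0.0609). It measured 170.04, 188, 190.4 and 154 CPM in the LRG1 libraries of week 10, against 365, 213, 375 and 234 CPM in the eGFP libraries (log2 fold change -0.76, SE 0.17, adjusted p = 0.0069). Every LRG1 value was below every eGFP value at both weeks, and the highest were eGFP replicates 1 and 3 of week 10. The call of Cd93 at week 10 was lost without LRG1 replicate 1, 2, 3 or 4 or without eGFP replicate 1 or 3, and without both eGFP replicates 1 and 3 its log2 fold change was -0.35. Its binding partners had values above 0. Mmrn2 measured 32.3, 29.4, 43.1 and 30.5 CPM in the LRG1 libraries of week 10, against 15.97, 29.9, 17.3 and 27.2 CPM in the eGFP libraries (log2 fold change 0.58, SE 0.20, adjusted p = 0.0426), and Clec14a measured 15.6, 15.1, 19.4 and 13.9 CPM in the LRG1 libraries of week 10, against 9.90, 13.3, 9.39 and 12.3 CPM in the eGFP libraries (log2 fold change 0.51, SE 0.17, adjusted p = 0.0378).

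Emcn was the gene that came nearest to a change of the LRG1 difference between weeks. It measured 24.4, 21.2, 33.7 and 25.4 CPM in the LRG1 libraries of week 10, against 16.04, 22.3, 19.96 and 22.4 CPM in the eGFP libraries (log2 fold change 0.38, SE 0.15, adjusted p = 0.0873). In eGFP mice all 4 values of week 10 were above all 4 of week 7 (log2 fold change 0.70, SE 0.15, adjusted p = 0.0143), which missed the threshold of 0.01. The difference of the LRG1 effects, week 10 minus week 7, was -0.49 (SE 0.22, adjusted p = 0.472). At week 10, Robo4 (log2 fold change 0.49, SE 0.22, adjusted p = 0.119), Podxl (log2 fold change 0.49, SE 0.22, adjusted p = 0.113), Plvap (log2 fold change 0.15, SE 0.14, adjusted p = 0.459) and Ecscr (log2 fold change 0.36, SE 0.20, adjusted p = 0.211) were not called.

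**Figure D3:**
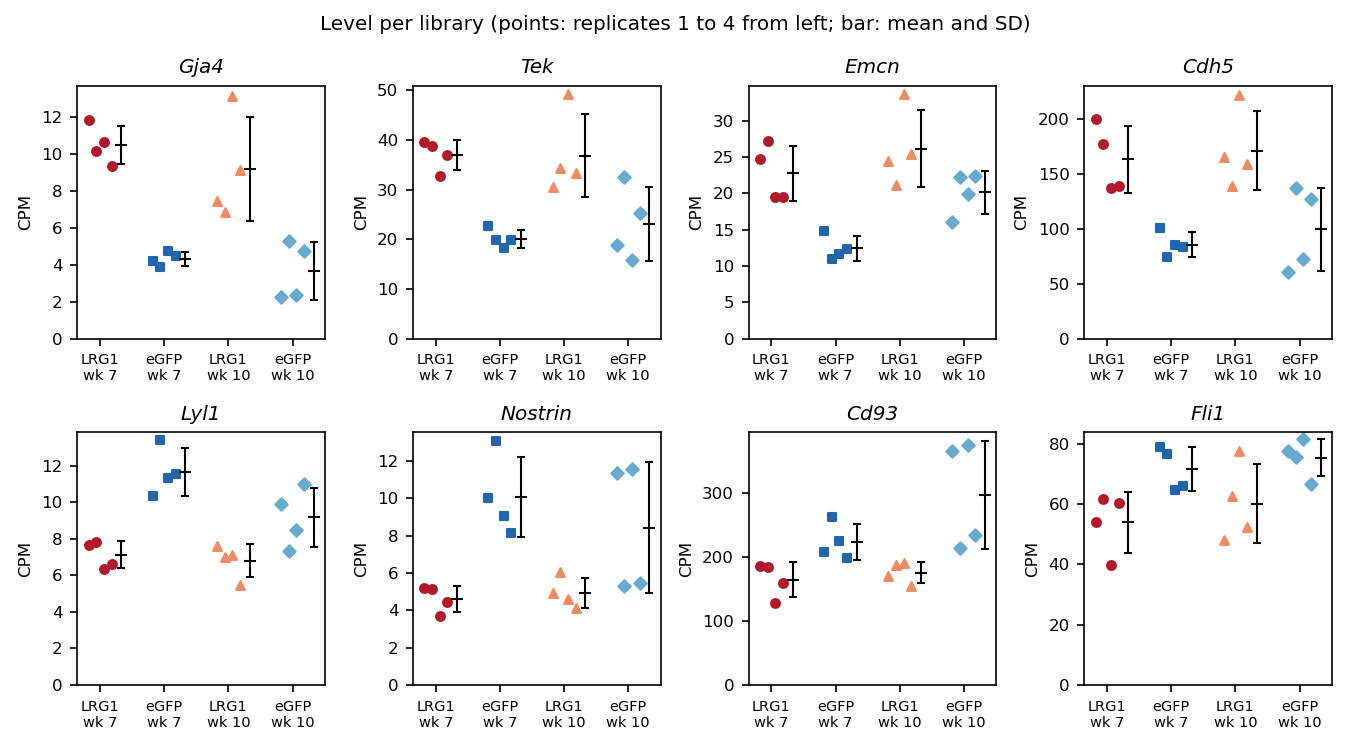
CPM of 8 genes in each library (points, replicates 1 to 4 from left) with the mean and SD of each group (y axes start at 0), LRG1 left of eGFP within each week. Gja4, Tek, Emcn and Cdh5 are higher in all LRG1 mice of week 7, Lyl1, Nostrin, Cd93 and Fli1 lower, and eGFP replicates 1 and 3 of week 10 part from replicates 2 and 4 in Gja4, Tek, Cdh5, Nostrin and Cd93.

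The 7 transcription factors did not move as a block. At week 7, Sox17 and Erg were called higher, Lyl1 was called lower, and 4 were not called, and at week 10 none was called. Sox17, the SOXF factor of arteries, had 12.9, 13.3, 12.3 and 11.6 CPM in the LRG1 libraries of week 7, against 5.08, 5.56, 5.93 and 4.60 CPM in the eGFP libraries (log2 fold change 1.24, SE 0.30, adjusted p = 0.00543). Erg, an ETS factor that maintains endothelial identity, had 17.6, 19.8, 12.6 and 14.9 CPM in the LRG1 libraries of week 7, against 11.1, 7.36, 8.87 and 7.71 CPM in the eGFP libraries (log2 fold change 0.89, SE 0.21, adjusted p = 0.00526). The relatives Sox7 at 0.78 (SE 0.29, adjusted p = 0.0468) and Sox18 at 0.46 (SE 0.24, adjusted p = 0.161) missed the threshold. Lyl1 (ENSMUSG00000034041, chr8:84701449-84704940), a basic helix-loop-helix factor of endothelium and blood stem cells, had 7.67, 7.81, 6.35 and 6.63 CPM in the LRG1 libraries of week 7, against 10.3, 13.4, 11.3 and 11.5 CPM in the eGFP libraries (log2 fold change -0.71, SE 0.13, adjusted p = 0.00105). No LRG1 library reached the lowest eGFP library. Its paralogue Tal1, by contrast, was at 1.97 ± 0.535 CPM in LRG1 mice and 1.35 ± 0.268 CPM in eGFP mice (SD, n = 4 each; log2 fold change 0.54, SE 0.24, adjusted p = 0.0935). Fli1, an ETS factor shared with blood cells, had 53.99 ± 10.2 CPM in LRG1 mice and 71.6 ± 7.27 CPM in eGFP mice (SD, n = 4 each; log2 fold change -0.41, SE 0.15, adjusted p = 0.0472), with no overlap between the groups. Of the length of Lyl1, 11.3% is shared with exons of Nfix on the opposite strand, and of that of Sox17 16.9% with exons of Gm37587, also opposite. Whether counting used strand is not given in the sources used here.

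Sox17 had its highest levels in the LRG1 mice of week 10. It measured 16.6, 16.5, 27.7 and 18.3 CPM in the LRG1 libraries of week 10, against 3.53, 12.9, 5.80 and 12.2 CPM in the eGFP libraries (log2 fold change 1.20, SE 0.30, adjusted p = 0.0104), which missed the threshold narrowly. It was also the member with the smallest adjusted p between the weeks in LRG1 mice, where all week 10 libraries were above all of week 7 (log2 fold change 0.66, SE 0.29, adjusted p = 0.559), as 3.64% of all genes were. Erg measured 17.2, 16.7, 23.9 and 14.6 CPM in the LRG1 libraries of week 10, against 8.20, 15.9, 9.47 and 13.9 CPM in the eGFP libraries (log2 fold change 0.61, SE 0.21, adjusted p = 0.0492). Lyl1 measured 7.62, 7.01, 7.10 and 5.50 CPM in the LRG1 libraries of week 10, against 9.90, 7.32, 8.48 and 10.99 CPM in the eGFP libraries (log2 fold change -0.43, SE 0.13, adjusted p = 0.0304). The groups overlapped for Erg and Lyl1 but not for Sox17. The differences of Sox7 (0.52), Sox18 (0.42), Fli1 (-0.33) and Tal1 (0.03) at week 10 were not called, with adjusted p from 0.122 (Fli1) to 0.953 (Tal1).

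Among 5 genes of nitric oxide, coagulation and secreted factors, Vwf and Aplnr were called higher and Nostrin lower at week 7. Nostrin (ENSMUSG00000034738, chr2:69135800-69189330) traffics the endothelial nitric oxide synthase away from the membrane. It had 5.19, 5.13, 3.72 and 4.43 CPM in the LRG1 libraries of week 7, against 10.003, 13.1, 9.07 and 8.14 CPM in the eGFP libraries (log2 fold change -1.12, SE 0.24, adjusted p = 0.00287). Nos3, the synthase itself, averaged 8.92 ± 1.85 CPM in LRG1 mice and 5.55 ± 0.638 CPM in eGFP mice (SD, n = 4 each) without overlap, and missed the threshold (log2 fold change 0.69, SE 0.19, adjusted p = 0.0116). Exons of Gm15587 on the opposite strand share 25.2% of the length of Nos3. Vwf, the clotting factor stored in endothelium and platelets, had 36.9, 18.99, 18.5 and 21.4 CPM in the LRG1 libraries of week 7, against 14.6, 15.4, 13.7 and 13.2 CPM in the eGFP libraries (log2 fold change 0.75, SE 0.17, adjusted p = 0.00351). Its LRG1 replicate 1 was far above the other LRG1 mice, and without it the log2 fold change was 0.47 and still called. Vwf was called in 5 of the 8 fits without 1 library and lost its call in the rest. Aplnr, the apelin receptor of growing vessels, averaged 11.9 ± 3.93 CPM in LRG1 mice and 5.38 ± 1.40 CPM in eGFP mice (SD, n = 4 each; log2 fold change 1.15, SE 0.28, adjusted p = 0.00572). Egfl7, a secreted matrix protein of endothelium, was at 32.7 ± 5.36 CPM in LRG1 mice and 21.4 ± 3.11 CPM in eGFP mice (SD, n = 4 each; log2 fold change 0.61, SE 0.24, adjusted p = 0.0585).

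None of these 5 genes was called at week 10. Nostrin measured 4.93, 6.06, 4.61 and 4.13 CPM in the LRG1 libraries of week 10, against 11.4, 5.32, 11.6 and 5.45 CPM in the eGFP libraries (log2 fold change -0.77, SE 0.24, adjusted p = 0.0335). The 4 eGFP mice formed a high set, replicates 1 and 3, and a low set, replicates 2 and 4, within the range of the LRG1 mice. Vwf measured 23.3, 22.2, 24.2 and 25.9 CPM in the LRG1 libraries of week 10, against 19.5, 19.5, 15.7 and 17.9 CPM in the eGFP libraries (log2 fold change 0.39, SE 0.17, adjusted p = 0.102). Vwf was evenly expressed in both groups at this age and did not overlap between them, nor did Nos3 (log2 fold change 0.74, SE 0.19, adjusted p = 0.0119) and Aplnr (log2 fold change 1.03, SE 0.28, adjusted p = 0.0163). The difference of Egfl7 was 0.62 (SE 0.24, adjusted p = 0.0681).

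Of 6 arterial and Notch genes, 4 were called higher in LRG1 mice at week 7 and 2 of these, Gja4 and Efnb2, again at week 10, with medians of 0.89 and 0.95. Gja4 (ENSMUSG00000050234, chr4:127311421-127314039), a gap junction connexin of arterial endothelium, had 11.8, 10.2, 10.6 and 9.37 CPM in the LRG1 libraries of week 7, against 4.19, 3.85, 4.73 and 4.49 CPM in the eGFP libraries (log2 fold change 1.28, SE 0.25, adjusted p = 0.00135). It measured 7.48, 6.88, 13.1 and 9.15 CPM in the LRG1 libraries of week 10, against 2.24, 5.27, 2.34 and 4.74 CPM in the eGFP libraries (log2 fold change 1.32, SE 0.25, adjusted p = 0.00305). No LRG1 value overlapped an eGFP value at either week. Efnb2 (ENSMUSG00000001300, chr8:8617434-8661242), the ephrin that marks arteries, had 13.9, 10.97, 10.2 and 10.2 CPM in the LRG1 libraries of week 7, against 6.96, 5.42, 5.96 and 5.62 CPM in the eGFP libraries (log2 fold change 0.92, SE 0.22, adjusted p = 0.00532). It measured 15.03, 8.92, 14.2 and 13.05 CPM in the LRG1 libraries of week 10, against 4.09, 8.54, 4.55 and 8.28 CPM in the eGFP libraries (log2 fold change 1.00, SE 0.22, adjusted p = 0.0059). Its LRG1 replicate 2 of week 10 was only just above the eGFP mice.

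Dll4, the Notch ligand of tip cells and arteries, had the largest difference of the list at week 7. It had 9.10, 7.58, 5.18 and 5.63 CPM in the LRG1 libraries of week 7, against 3.12, 1.71, 2.98 and 3.29 CPM in the eGFP libraries (log2 fold change 1.31, SE 0.33, adjusted p = 0.00727). Its call was lost in each of the 8 fits that left out 1 library, as was that of Sox17, while the log2 fold change of Dll4 stayed at 1.14 or more. Other week 7 calls were nearly as dependent on single libraries. Flt4, Clec14a and Notch4 kept theirs in 1 of the 8 fits each, and Robo4, Erg, Aplnr and Efnb2 in 2 each. Dll4 measured 6.88, 3.94, 5.99 and 4.47 CPM in the LRG1 libraries of week 10, against 1.27, 4.25, 1.51 and 3.17 CPM in the eGFP libraries (log2 fold change 1.05, SE 0.33, adjusted p = 0.0331). Notch4, a Notch receptor largely confined to endothelium, averaged 18.3 ± 2.67 CPM in LRG1 mice and 10.2 ± 1.18 CPM in eGFP mice (SD, n = 4 each; log2 fold change 0.85, SE 0.21, adjusted p = 0.00586) at week 7 and 19.9 ± 2.42 CPM in LRG1 mice and 11.9 ± 4.58 CPM in eGFP mice at week 10 (log2 fold change 0.74, SE 0.21, adjusted p = 0.0184). Hey1, a transcriptional target of Notch, had 4.55, 5.25, 4.16 and 4.13 CPM in the LRG1 libraries of week 7, against 2.45, 2.76, 2.70 and 2.01 CPM in the eGFP libraries (log2 fold change 0.87, SE 0.26, adjusted p = 0.0205). Hey1 measured 5.54, 3.69, 5.72 and 3.89 CPM in the LRG1 libraries of week 10, against 1.81, 2.72, 1.35 and 4.23 CPM in the eGFP libraries (log2 fold change 0.89, SE 0.27, adjusted p = 0.0252). It did not overlap at week 7 and did at week 10, and was called at neither.

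Gja5, the other arterial connexin of the list, was called at neither week. It had 8.004, 9.65, 5.82 and 10.1 CPM in the LRG1 libraries of week 7, against 8.45, 7.06, 6.65 and 5.46 CPM in the eGFP libraries (log2 fold change 0.28, SE 0.26, adjusted p = 0.443). It measured 5.22, 9.19, 10.4 and 6.07 CPM in the LRG1 libraries of week 10, against 5.40, 9.77, 4.35 and 8.18 CPM in the eGFP libraries (log2 fold change 0.15, SE 0.26, adjusted p = 0.717). The ranges overlapped at both weeks, and the week 10 value was below 0 without eGFP replicate 3 or LRG1 replicate 3.

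Prox1, the lymphatic transcription factor, was barely detected. It had 0.684, 0.371, 0.195 and 0.293 CPM in the LRG1 libraries of week 7, against 0.174, 0.373, 0.169 and 0.128 CPM in the eGFP libraries (log2 fold change 0.87, SE 0.52, adjusted p = 0.224). It measured 0.699, 0.758, 0.131 and 0.252 CPM in the LRG1 libraries of week 10, against 0.215, 0.134, 0.208 and 0.169 CPM in the eGFP libraries (log2 fold change 1.33, SE 0.54, adjusted p = 0.0853). The highest library was an LRG1 mouse at both weeks. The other LRG1 mice of week 7 were within the eGFP range, while at week 10 LRG1 replicates 1, 2 and 4 were above all eGFP mice and LRG1 replicate 3 was just below them. Of 10 further lymphatic genes 9 were tested and none was called at either week, with medians of 0.35 at week 7 and 0.22 at week 10. Foxc2, a factor of lymphatic valves, had 1.39 (SE 0.39, adjusted p = 0.0127) at week 7. Nrp2, a co-receptor of Flt4 that other cells also carry, was at -1.09 in week 10 (SE 0.28, adjusted p = 0.0113), after -0.59 in week 7 (SE 0.27, adjusted p = 0.109), so values of the lymphatic genes lay on both sides of 0.

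At week 10, 3 of the 38 genes were called higher in LRG1 mice (Tie1, Efnb2 and Gja4, all 3 also called at week 7) and 1 lower (Cd93). Genes called higher at both weeks made up 2.35% of all genes. Among all genes tested 3.66% were called higher and 5.24% lower. The median of the 38 genes was 0.62 (1.53-fold), against -0.01 over all genes, and all 38 had the same sign as at week 7, with 34 above 0 (49.5% of all genes). Groups did not overlap for 11 genes higher in LRG1 mice (9.96% of all genes) and for Cd93 (10.1% of all genes). The median coefficient of variation of the 38 genes was 20.5% in LRG1 and 35.0% in eGFP mice of week 10, and 17.3% in LRG1 and 13.6% in eGFP mice of week 7. Over all genes tested it was 14.5% in LRG1 and 22.3% in eGFP mice of week 10. Leaving out 1 library of week 10 changed the total of 4 to 0 (eGFP replicate 1 or 3, LRG1 replicate 3 or 4), 1 (LRG1 replicate 1), 3 (LRG1 replicate 2), 10 (eGFP replicate 4) or 17 (eGFP replicate 2). Over all genes, 762 were called higher and 1092 lower with every library. The fits with 0 calls had 159 to 239 higher and 125 to 291 lower, and that with 17 had 1601 and 2046. That with 1 call had 289 and 441, that with 3 had 597 and 754, and that with 10 had 1206 and 1589. Without both eGFP replicates 1 and 3 no gene was called (0.736% of all genes were), the median was 0.31, and 31 genes were above 0. In that fit Tie1 had 0.60 (adjusted p = 0.125), Efnb2 0.61 (adjusted p = 0.0714) and Gja4 0.87 (adjusted p = 0.0261). Of the 8 fits without 1 library, Tie1 and Efnb2 were called in 3 each at week 10, losing the call without eGFP replicate 1 or 3 or LRG1 replicate 1, 3 or 4. Gja4 was called in 4 of them, losing the call without eGFP replicate 1 or 3 or LRG1 replicate 3 or 4.

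**Figure D4:**
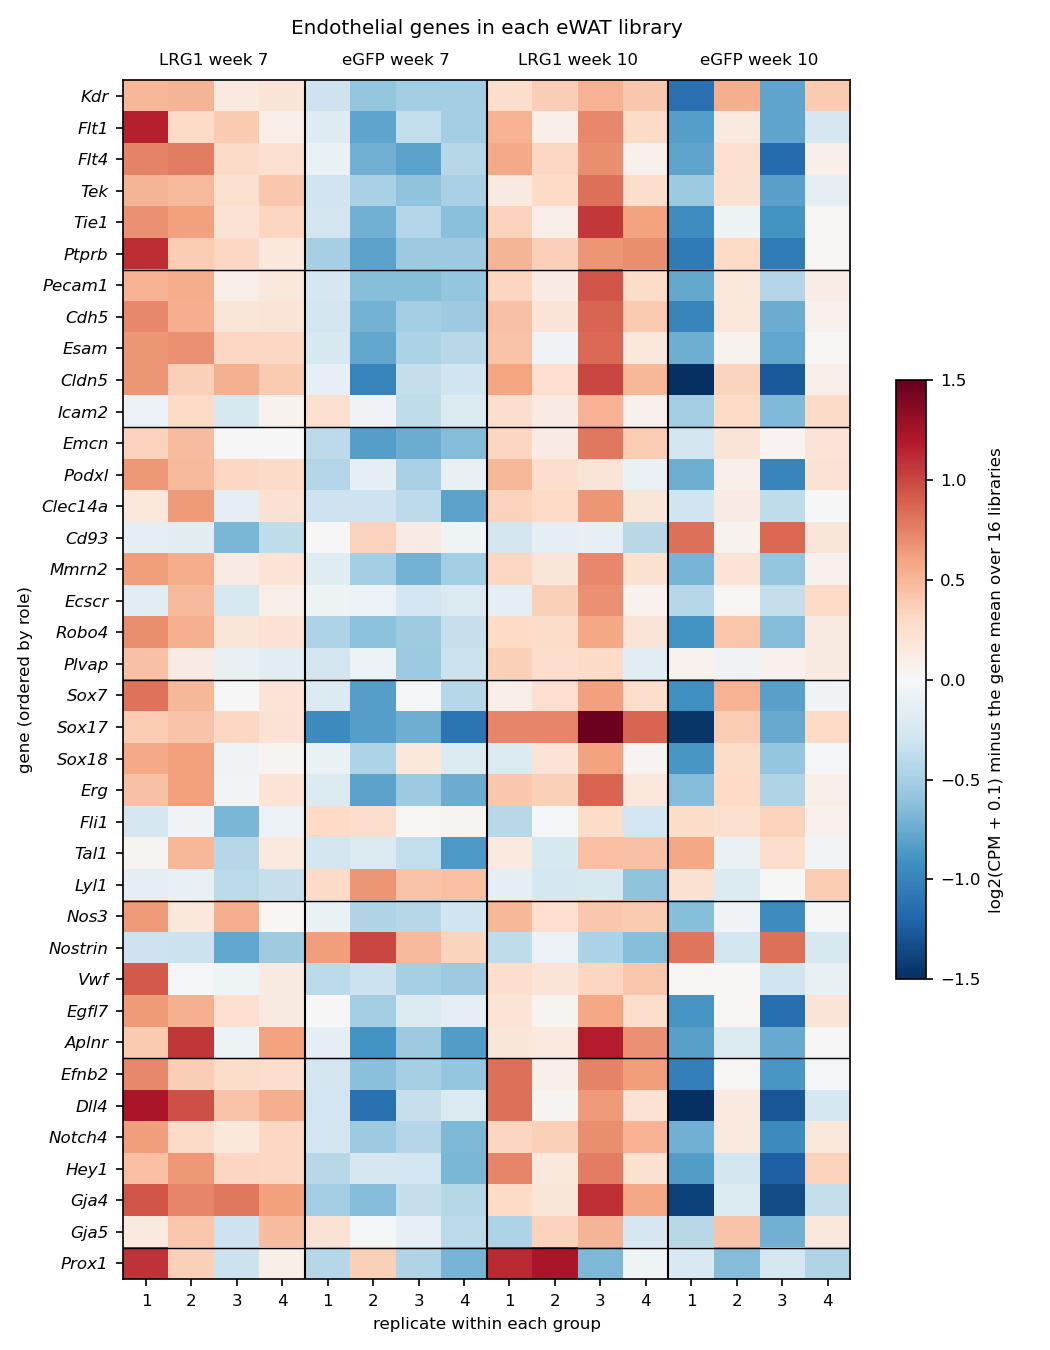
Log2(CPM + 0.1) of each gene minus its mean over the 16 libraries (colour), genes in rows by role and libraries in columns, LRG1 left of eGFP within each week. LRG1 libraries are mostly red and eGFP libraries of week 7 mostly blue, replicates 1 and 3 of eGFP at week 10 are the darkest blue columns, and LRG1 replicate 3 of week 10 is the highest of its group for 28 of 38 genes.

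Whether the LRG1 difference itself changed between the weeks was tested as an interaction. No gene of the list passed it by edgeR, DESeq2 or limma-voom (0.327% of all genes passed by edgeR). At an unadjusted p below 0.05 there were 0 genes with a larger value at week 10 (5.64% of all genes) and 1, Emcn, with a smaller one (3.74% of all genes). The smaller number of calls at week 10 is therefore not shown to be a smaller difference. Without eGFP replicates 1 and 3, 1 of the 38 genes, Kdr, passed with a smaller difference at week 10, as did 0.832% of all genes.

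Neither group gave an edgeR call between the ages. In LRG1 mice, week 10 against week 7 had a median of 0.06 and no call by edgeR, DESeq2 or limma-voom (0.00961% of all genes were called by edgeR), with 1 gene, Sox17, higher at an unadjusted p below 0.05 (4.26% of all genes). In eGFP mice the median was 0.17, and no gene was called (2.14% of all genes were), with 5 higher (8.98% of all genes) and 1 lower (10.9% of all genes) at an unadjusted p below 0.05. DESeq2 called Emcn higher, as it did 451 of 21869 genes, and limma-voom called none of the list. Week 10 lay wholly above week 7 for Emcn, Plvap, Tal1 and Vwf in eGFP mice (4.08% of all genes). Without eGFP replicates 1 and 3 of week 10, 6 genes were called in eGFP mice, Kdr, Emcn, Robo4, Sox17 and Notch4 higher and Nostrin lower at week 10, with a median of 0.48. Of all genes, 4.86% were called higher and 5.24% lower in that fit.

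Further endothelial genes, outside the list, were compared in the same way. Of 25 further genes of endothelium, 7 were called higher at week 7 and none at week 10, with medians of 0.62 and 0.41. Of all genes tested, 7.37% were called higher at week 7 and 3.66% at week 10. They included Aqp1, a water channel, at 1.55 (SE 0.35, adjusted p = 0.00358), S1pr1, the sphingosine phosphate receptor, at 0.73 (SE 0.16, adjusted p = 0.00332), Cd34 at 0.62 (SE 0.14, adjusted p = 0.00324) and Adgrl4 at 0.72 (SE 0.18, adjusted p = 0.00635). Values below 0 at week 7, none called, were those of Calcrl (-0.87), Acvrl1 (-0.59), Ets1 (-0.29), Elk3 (-0.25) and Gimap6 (-0.02). At week 10 the smallest adjusted p was that of Ramp2, the partner of Calcrl (0.69, SE 0.18, adjusted p = 0.0133), while Calcrl was at -0.89 (SE 0.26, adjusted p = 0.0216).

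Genes tied to single vessel types were mostly not called. Of 10 genes of capillary and fatty acid handling endothelium, none was called at either week, and all 10 were above 0 at week 7 (median 0.59). They include Fabp4, which the authors used as a marker of mature adipocytes. Gpihbp1, the anchor of lipoprotein lipase, had week 7 and week 10 values of 0.85 (SE 0.27, adjusted p = 0.0234) and 0.68 (SE 0.27, adjusted p = 0.0752). Car4, a capillary carbonic anhydrase, had 1.00 (SE 0.25, adjusted p = 0.0101) at week 10. Cd36, which adipocytes and macrophages share, was the exception below 0 at week 10, at -0.34. Of 14 further arterial and Notch genes, Jag1, a Notch ligand, was called higher at week 7 (0.43, SE 0.10, adjusted p = 0.00424) and none at week 10, where it had -0.06. A single call in 14 genes is close to the share over all genes at week 7, 7.37%. Values were above 0 for 13 of the 14 at week 7 (median 0.48) and for 11 at week 10 (median 0.39). Rbpj, the DNA-binding partner of Notch, had values below 0 at both weeks, -0.39 and -0.27, neither called.

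Genes of venous endothelium gave calls in both directions. Over all genes, 7.37% were called higher and 10.7% lower at week 7, and 3.66% and 5.24% at week 10. Values were above 0 for 5 of them at week 7 (median 0.46) and for 4 at week 10 (median 0.18). Of 7 genes, Nr2f2, the venous transcription factor, was called higher at week 7 (0.57, SE 0.10, adjusted p = 0.000823). Vcam1 and Icam1, adhesion molecules of inflamed endothelium and other cells, were called lower at both weeks. The week 7 and week 10 values were -2.21 (SE 0.20, adjusted p = 1.42e-06) and -0.90 (SE 0.19, adjusted p = 0.00496) for Vcam1. They were -1.22 (SE 0.14, adjusted p = 1.8e-05) and -0.78 (SE 0.14, adjusted p = 0.00247) for Icam1. Among 10 ligands of the receptors described above, only Angpt1, the agonist of Tek made by mural and stromal cells, was called, and it was lower in LRG1 mice at both weeks. Its week 7 and week 10 values were -1.18 (SE 0.21, adjusted p = 0.000828) and -1.13 (SE 0.22, adjusted p = 0.00304). Vegfa, the ligand of Kdr and Flt1, had 0.72 (SE 0.25, adjusted p = 0.0402) at week 7.

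Markers of other cells differed between the same groups. The shares called over all genes were 7.37% higher and 10.7% lower at week 7, and 3.66% and 5.24% at week 10. All 12 pan-leukocyte genes were called lower in LRG1 mice at both weeks (medians -1.54 and -1.27), with 539.5 to 761.2 CPM in LRG1 and 1766 to 2206 CPM in eGFP mice of week 7, and 547.5 to 800.4 CPM in LRG1 and 948.9 to 2651 CPM in eGFP mice of week 10. Of 12 macrophage genes, 11 were called lower at week 7 (1288 to 1424 CPM in LRG1 and 2789 to 3488 CPM in eGFP mice) and 10 at week 10 (1148 to 1513 CPM in LRG1 and 1667 to 3045 CPM in eGFP mice). Of 9 mast cell genes, 8 were called lower in LRG1 mice at week 10 (median -3.25, 36.3 to 43.3 CPM in LRG1 and 58.4 to 465.9 CPM in eGFP mice) and none at week 7 (median -0.87, 36.8 to 46.4 CPM in LRG1 and 53.8 to 88.1 CPM in eGFP mice). Mature adipocyte genes, 3 of 12 called higher at week 7 (11960 to 14520 CPM in LRG1 and 7457 to 8693 CPM in eGFP mice) and 1 of 12 at week 10 (13570 to 14570 CPM in LRG1 and 5036 to 11990 CPM in eGFP mice), had medians of 0.72 and 0.49. Of 12 smooth muscle and pericyte genes, 4 were called higher at each week (medians 0.58 and 0.67), with 715.2 to 772.3 CPM in LRG1 and 442.7 to 497.7 CPM in eGFP mice of week 7. None of 9 mesothelial genes was called (median 0.63 at week 7, with 237.6 to 351.8 CPM in LRG1 and 137.9 to 215.6 CPM in eGFP mice). Fibroblast and progenitor genes, 10 in all, had 2 called higher and 1 lower at week 7, and 1 lower at week 10 (medians 0.37 and -0.05). Their sums overlapped at week 7, at 5005 to 5713 CPM in LRG1 and 4628 to 5772 CPM in eGFP mice. Erythroid genes, 9 in all, had no call (medians 0.76 and 1.05), with 127.1 to 285.2 CPM in LRG1 and 59.07 to 156.2 CPM in eGFP mice of week 7. Platelet genes had 22.5 to 27.9 CPM in LRG1 and 25.4 to 35.9 CPM in eGFP mice of week 7, nearly all from Pf4, and 4 of the 9, among them Gp5 and Gp9, were too low to be tested. Of the 5 tested, none was called at week 7 and 1 was called lower in LRG1 mice at week 10 (medians -0.24 and -0.50). Mitochondrial ribosomal RNA took 29.2% ± 1.51 of counts in LRG1 and 25.0% ± 0.866 in eGFP mice of week 7 (SD, n = 4 each), and the calls of the list were the same in number with mitochondrial genes left out. The part of any of these differences in the endothelial results was not tested.

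**Figure D5:**
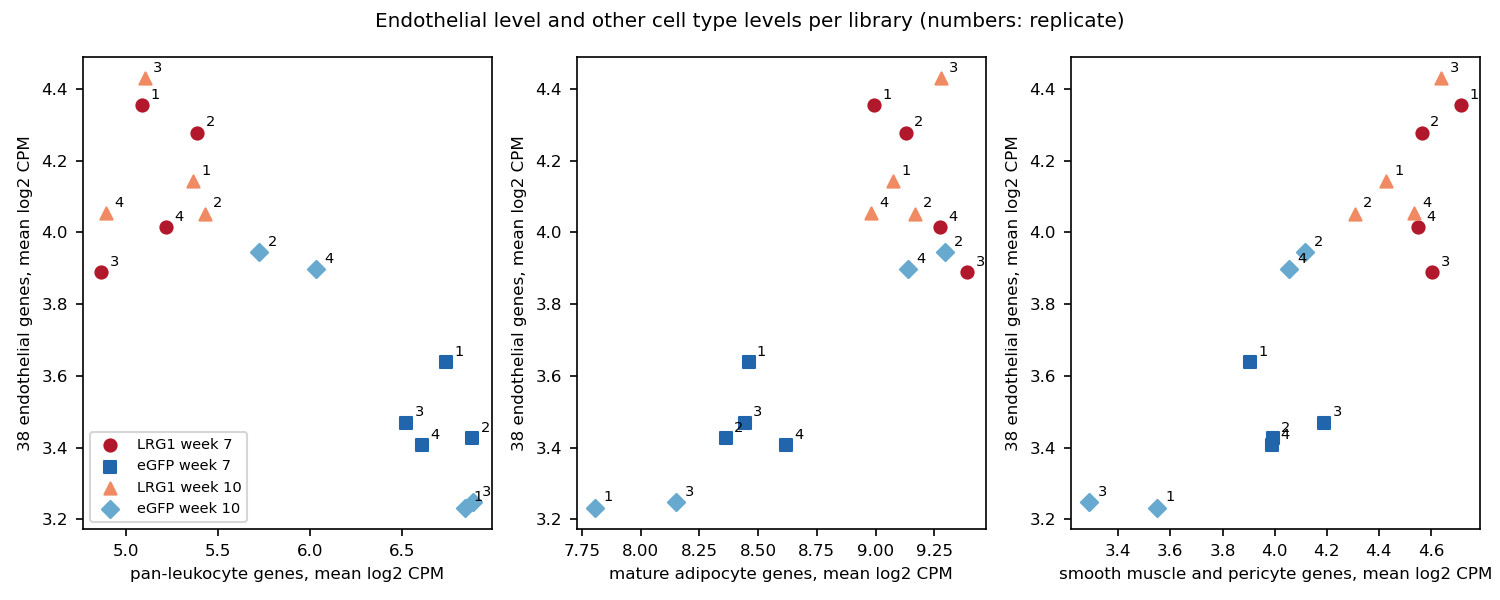
Mean log2 CPM of the 38 genes (y axis) against that of 12 pan-leukocyte, 12 mature adipocyte and 12 smooth muscle and pericyte genes (x axes), 1 point per library. LRG1 libraries lie at 3.89 to 4.43 on the y axis with low leukocyte levels, and eGFP replicates 1 and 3 of week 10 at 3.23 and 3.25 with high ones, while eGFP replicates 2 and 4 of week 10, at 3.94 and 3.90, reach the low end of the LRG1 mice on the y axis, with leukocyte levels between those of the LRG1 mice and of the eGFP mice of week 7.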

How the data were processed

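Total RNA of eWAT was sequenced from 16 db/db mice. The deposited values are raw counts per gene, which the authors made with featureCounts after Cutadapt trimming and STAR alignment to mm10 (GRCm38). Versions, strand and multi-mapping settings are not given in the sources used here. The deposited gene length, another column of the same table, served only for levels per kilobase. A single model with 1 mean per group was fitted to the 16 libraries with edgeR 4.0.16 under R 4.3.3, after the filterByExpr filter and TMM scaling, and contrasts were tested by quasi-likelihood. A gene was called where p, adjusted by Benjamini-Hochberg over 20822 genes, was below 0.01. The SE was taken as the absolute log2 fold change divided by the root of the F statistic. Scores used log2 CPM with a prior count of 2. The procedure was also run on simulated counts, with each gene drawn independently. That run cannot speak to differences that many genes of a library share.

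The members and lists were chosen with earlier results of these data known. Given in every library are the called members, up to 16 by adjusted p, and Prox1, Dll4, Gja5, Hey1, Kdr, Pecam1, Cdh5 and Vwf. Of other lists, up to 4 genes by adjusted p and those against the direction of the rest could be named. Replicates are separate mice, and replicate numbers were not used as pairs (24 pairs of the same number, median correlation of deviations -0.01). No libraries of a group were duplicates (correlation of log2 CPM 0.963 to 0.987). Alternatives were DESeq2 1.42.0, limma-voom (limma 3.58.1), scaling by RLE, by the upper quartile or by library size, fits of only the 8 libraries compared, other filters, the replicate number as a block, mitochondrial genes left out, an adjusted p below 0.05, and leaving out each library. Promoter windows are from RefSeq.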

Additional observations from a re-analysis of the deposited data

Results flagged for a closer look

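In 4 of the 152 sets of 4 libraries (38 genes in 4 groups), the highest or lowest library stood apart from the other 3 by Dixon's criterion, which chance meets in about 1 of 20 sets. Vwf was at 36.9 CPM in LRG1 replicate 1 of week 7, against 18.5 to 21.4 CPM in the other LRG1 mice, and Sox17 at 27.7 CPM in LRG1 replicate 3 of week 10, against 16.5 to 18.3 CPM. In eGFP mice of week 7, Ptprb was at 62.5 CPM in replicate 2, with 75.0 to 76.9 CPM in the others, and Pecam1 at 109 CPM in replicate 1, with 83.8 to 87.2 CPM in the others.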

How the results depend on the processing

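At week 7, 22 genes were called, and 26 by DESeq2, 23 by limma-voom, 30 with only the 8 libraries compared, 22 with RLE scaling, 23 with upper quartile scaling, 5 with library size scaling (2 higher, 3 lower) and 5 to 16 without any 1 library. Emcn, Lyl1 and Gja4 were called in all 11 of these and the other alternatives and in all 8 fits without 1 library. Calls over all genes at week 7, higher and lower, were 1534 and 2221 of 20822 in the main fit and 2349 and 2809 of 20391 by DESeq2. They were 2581 and 3146 of 19719 with only the 8 libraries compared, and 341 and 3636 of 20822 with library size scaling. Of the same 20822, limma-voom called 1638 and 2255, RLE scaling 1556 and 2185, and upper quartile scaling 1993 and 1957. At week 10, 4 genes were called, and 15 by DESeq2, 5 by limma-voom, 0 with only the 8 libraries compared, 2 with library size scaling, 7 with no filter on low counts, 22 at an adjusted p below 0.05, 0 to 17 without any 1 library and 0 without eGFP replicates 1 and 3. Calls over all genes, higher and lower, were then 762 and 1092 of 20822 in the main fit and 1573 and 1945 of 19654 by DESeq2. They were 2 and 10 of 19128 with only the 8 libraries compared, and 320 and 1136 of 20822 with library size scaling. At an adjusted p below 0.05 they were 2146 and 2615 of 20822. By limma-voom they were 804 and 639 of 20822, and with no filter on low counts 789 and 1204 of 38172. Gja5 at week 10 had -0.025 to 0.363 without any 1 library, with -0.012 without eGFP replicate 3 and -0.025 without LRG1 replicate 3, and -0.218 without eGFP replicates 1 and 3, where Kdr had -0.078. The interaction had 0 calls and 1 without eGFP replicates 1 and 3. Between the weeks in eGFP mice, 0 genes were called, and 1 by DESeq2, with no filter, at an adjusted p below 0.05 or without eGFP replicate 1 of week 10 (range without any 1 library 0 to 1), and 6 without eGFP replicates 1 and 3. Other than by their own construction, with fewer libraries or genes, the cause of these differences was not tested. With the replicate number as a block, 10 genes were called at week 7 (8 higher, 2 lower, against 1270 and 1978 over all genes). The block left 1, Gja4, at week 10 (532 higher and 642 lower over all genes), with 0 in the other comparisons. Replicate numbers are not shown to pair the mice, since correlations of the same number ran from -0.20 to 0.14 and 4 of 16 libraries were best correlated with their own number. Prox1 was lost under the stricter filter, and a fit of only the 8 libraries compared does not apply to the interaction. With 4 mice a group and a threshold of 0.01, and 0.13 to 0.76 CPM for Prox1, smaller differences could not be told from the spread between mice.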
